A study of Mus musculus with 32 samples.

Results

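Imprinted genes were examined in mouse embryonic stem cells (mESCs) with and without the Polycomb subunit EED. The genes were 45 symbols taken from general knowledge of mouse imprinting, all of which were found once among the 24028 symbols of the RNA-seq tables, and they were grouped by imprinted cluster and by the parental allele known to be expressed. They fell into 19 loci, of which 9 held several of the genes and 10 held 1 gene, and 20 of the genes lay on chromosome 7. By the allele known for each, 20 were classed as maternally and 22 as paternally expressed. Another 3 (Grb10, Gnas and Inpp5f) were set apart because their class depends on tissue or transcript. The classes do not mean that a gene is imprinted in mESCs. Some genes classed as maternally expressed, Ube3a and Copg2 among them, are so in some tissues only.

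The series held 32 samples on DNA methylation valleys, large regions with little DNA methylation, and 2 of these were RNA-seq libraries, 1 of WT and 1 of Eed-/- mESCs. Both were given as strain TT2, and both were grown on gelatinized plates in medium with serum and leukemia inhibiting factor. Ribosomal RNA was removed from the total RNA, and the libraries were made in a way that marks the strand. The labels do not say how the Eed-/- line was made, how many clones it stands for, or whether either line carried other alleles.

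Imprinted genes are transcribed from 1 parental chromosome. For most of them DNA methylation laid down in the egg or the sperm marks an imprinting control region. That mark then sets which copies of the surrounding genes are used. Slc38a4, described below, is an exception. Polycomb repressive complex 2 (PRC2), of which EED is the subunit that reads methylated H3K27, adds H3K27me3. It is known at the silent allele of several imprinted genes, above all in placental lineages, and imprints are often unstable in cultured mESCs. The FPKM values (sequenced fragments scaled by transcript length and by the size of the library) used here add both alleles together, so they hold no reading of which parental copy a transcript came from.

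The values were 1 library per genotype, so no difference had a replicate check and no test was made. Changes are given as the difference, Eed-/- minus WT, in log2(quantile-normalized FPKM + 1), so that the 1 added to each value shrinks the changes of genes near 0. A gene was used when its mean normalized FPKM was at least 0.1, and it was counted as higher or lower past a 2-fold difference, that is a change of at least 1 in size. Low FPKM values moved in steps of whole fragments, and these steps gave a depth of about 7200000 fragments in WT against 6380000 in the Eed-/- library. From these depths an exact 95% interval (Clopper-Pearson) was set on the ratio of deposited FPKM, Eed-/- to WT, and it covers counting error only and is approximate for genes with several transcripts. Moved to the normalized scale, the interval no longer included 1 for Igf2r, Peg10, Gnas and Slc38a4 and came to include it for Rian, Mest, Cd81 and Nnat, of 39 genes with both. The gene Eed itself had an FPKM of 63.0 in WT against 70.9 in the other library, so its transcript level did not mark the genotype, and that library is named below as the library labelled Eed-/-. The study checked the loss of EED by its histone mark, with western blots and ChIP-seq, which were not used here. The other Eed-/- assays of the series carry another strain label than TT2, the name of a point-mutant allele of Eed, and for such an allele the transcript level checks nothing. The mESC markers summed to 1322 FPKM in WT against 1380 in the library labelled Eed-/-, and 0 of 8 passed the 2-fold threshold. Single markers moved both ways. After normalization 5 changes were above 0 and 3 below, from -0.38 (Utf1) to 0.99 (Klf4). In deposited FPKM Pou5f1 was lower in the library labelled Eed-/- (393 in WT against 373), and of the other 7 markers 3 were higher and 4 lower. The balance of directions thus depended on the scaling.

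Of the 4 imprinted genes past the 2-fold threshold given below, Snrpn, Plagl1 and Phlda2 are shown here by their RefSeq promoter windows, 250 bases before to 50 bases after a start on GRCm38.p6, because imprinted promoters are known for CpG content and for the hexamer TGCCGC that ZFP57 reads on the methylated allele. H19 had no window in the table used. Capitals mark the hexamer, which was searched on both strands (its reverse complement is GCGGCA). The windows below are that of Snrpn shared with Snurf (chr7:60005150-60005449, minus strand), that of Snrpn shared with Snhg14 (chr7:60450128-60450427, minus strand), that of Plagl1 (chr10:13090582-13090881, plus strand) and that of Phlda2 (chr7:143502475-143502774, minus strand).
Snrpn and Snurf: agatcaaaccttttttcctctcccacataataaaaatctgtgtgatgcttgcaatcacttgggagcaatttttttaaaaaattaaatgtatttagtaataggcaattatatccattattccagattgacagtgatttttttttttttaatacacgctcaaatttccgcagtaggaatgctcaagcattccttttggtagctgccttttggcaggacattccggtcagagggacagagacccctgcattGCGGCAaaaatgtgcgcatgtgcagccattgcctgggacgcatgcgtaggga
Snrpn and Snhg14: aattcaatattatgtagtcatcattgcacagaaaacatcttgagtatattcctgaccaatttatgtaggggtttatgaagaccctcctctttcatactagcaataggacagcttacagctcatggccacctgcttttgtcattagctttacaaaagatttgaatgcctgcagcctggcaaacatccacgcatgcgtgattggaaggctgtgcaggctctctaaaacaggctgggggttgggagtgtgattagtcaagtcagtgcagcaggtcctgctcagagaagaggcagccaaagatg
Plagl1: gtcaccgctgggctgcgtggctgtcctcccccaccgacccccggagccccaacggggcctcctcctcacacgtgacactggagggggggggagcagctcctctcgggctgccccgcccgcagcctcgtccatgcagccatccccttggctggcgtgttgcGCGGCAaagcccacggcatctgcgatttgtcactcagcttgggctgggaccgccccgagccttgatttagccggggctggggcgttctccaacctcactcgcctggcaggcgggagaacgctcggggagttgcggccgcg
Phlda2: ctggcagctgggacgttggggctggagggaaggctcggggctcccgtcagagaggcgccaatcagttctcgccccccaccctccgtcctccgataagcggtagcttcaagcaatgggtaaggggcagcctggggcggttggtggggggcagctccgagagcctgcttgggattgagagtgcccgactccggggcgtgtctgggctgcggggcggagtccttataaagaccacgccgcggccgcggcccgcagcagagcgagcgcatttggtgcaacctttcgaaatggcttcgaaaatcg
The Snrpn window shared with Snurf held 7 CpG and 1 hexamer, and the upstream window shared with Snhg14 held 2 CpG and no hexamer. The windows of Plagl1 and Phlda2 each held 26 CpG, with 1 hexamer in that of Plagl1 and none in that of Phlda2. Thus a gene that was higher and a gene that was lower had windows with the same number of CpG.

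Of the 45 imprinted genes, 41 passed the filter on low values. In the library labelled Eed-/-, 1 of them was at least 2-fold higher (Plagl1), where 3.80% of the 14835 genes used were, and 3 were at least 2-fold lower (Snrpn, H19 and Phlda2), where 3.98% of all genes were. These counts are 2.44% and 7.32% of the 41, and with 1 library a genotype they describe this pair of libraries. With the deposited FPKM, not normalized between libraries, 455 of all genes were higher and 801 lower with a median change of -0.091, and of the imprinted genes 1 was higher and 4 were lower, with Copg2 added. The median change of the imprinted genes was -0.04, with 19 above 0 and 22 below, beside a median of 0.01 over all genes. The 4 genes that did not pass were Slc22a3, Rasgrf1 and Kcnk9, which were listed at 0 in both libraries, and Kcnq1, a potassium channel gene, which had an FPKM of 0.0495 in WT and was at almost 0 in the library labelled Eed-/-. Of the 15 imprinted genes whose mean normalized FPKM reached 10, 0 were higher and the same 3 were lower, beside 3.37% higher and 3.81% lower of the 4957 genes at that level.

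**Figure D1:**
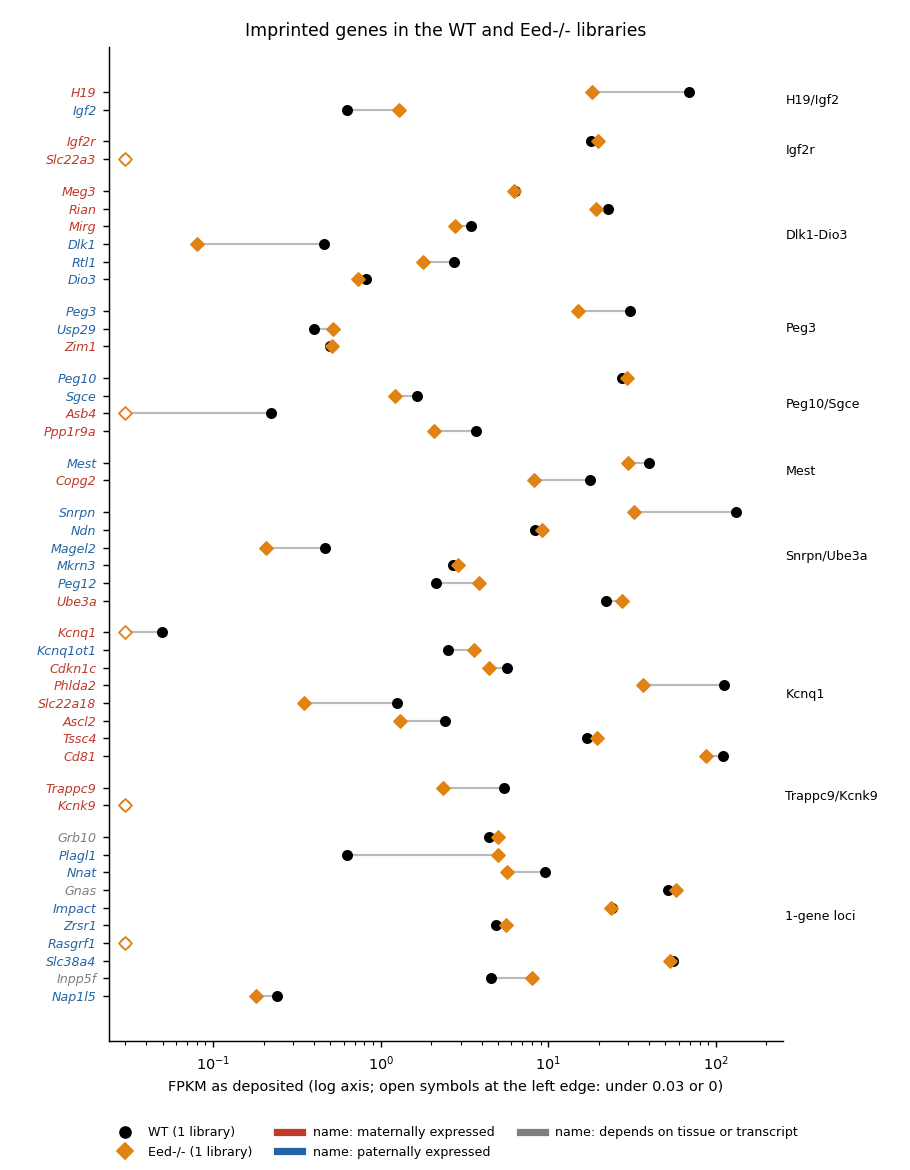
Deposited FPKM (log axis) of the 45 imprinted genes, grouped by cluster, with a circle for the WT library and a diamond for the library labelled Eed-/-, 1 library each; open symbols at the left edge stand for values under 0.03 or at 0. The widest gaps among genes with an FPKM over 10 are those of Snrpn, H19 and Phlda2, and Plagl1 moves from 0.627 to 5.00.

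**Figure D2:**
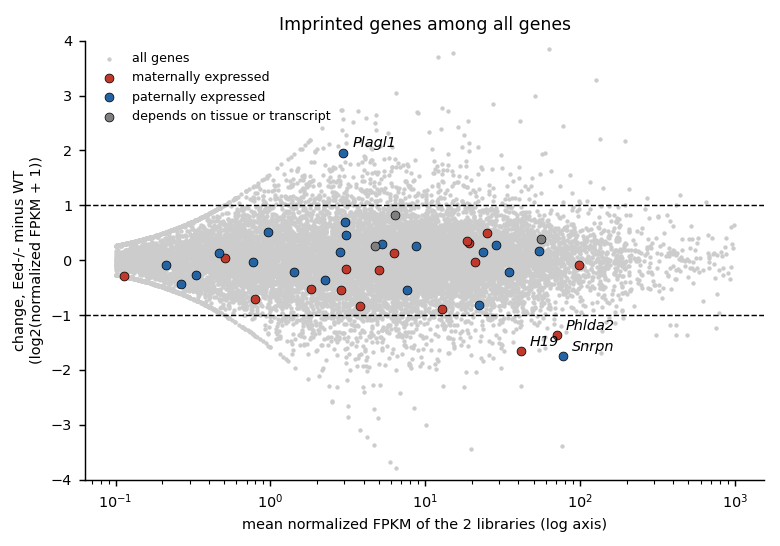
Change between the libraries against the mean normalized FPKM (log axis) for 14749 genes in grey, with 86 genes beyond the axes not drawn, and for the 41 imprinted genes that passed the filter in colour by expressed allele; dashed lines mark a 2-fold difference. Plagl1 lies above the upper line, and Phlda2, H19 and Snrpn lie below the lower line at high expression.

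Among the listed imprinted genes, Snrpn had the most negative change. Snrpn encodes a splicing protein and lies in the cluster deleted in Prader-Willi and Angelman syndromes. It spans chromosome 7 of mm9 from 67127388 to 67285105 on the minus strand and is paternally expressed. Its FPKM was 132 in WT against 32.6 in the library labelled Eed-/-, a change of -1.76 and a ratio of 0.246 (95% interval 0.220 to 0.276, from about 1753 and 383 fragments). Snurf, which shares its first exons and the start window printed above, had an FPKM of 8.15 in WT against 2.04 in the other library, a change of -1.49. The FPKM of Snrpn was 16.2 times that of Snurf in WT against 15.9 times in the library labelled Eed-/-, so the pair moved in nearly constant proportion. Reads of the shared exons could be assigned to either symbol. Snhg14, the long non-coding transcript that starts in the same upstream window and runs towards Ube3a, had 11.9 in WT against 2.69 in the other library, a change of -1.70.

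The lower level of Snrpn was not shared by the whole Snrpn/Ube3a cluster. Ndn, which encodes the growth suppressor necdin, had an FPKM of 8.35 in WT against 9.16 in the library labelled Eed-/-, a change of 0.25. Mkrn3, a ring-finger gene linked to the timing of puberty, had 2.69 and 2.88, a change of 0.15. Peg12 had 2.14 and 3.84, a change of 0.70 and a ratio of 1.80 (95% interval 1.17 to 2.75). These paternally expressed genes, which lie about 3 Mb from Ube3a, thus stood at or above their WT level while Snrpn stood far below it. Magel2, a ubiquitin ligase cofactor of the MAGE family, had 0.463 and 0.207, a change of -0.28 that rests on about 15.0 and 5.93 fragments. Ube3a, the ubiquitin ligase that is maternally expressed in neurons and used from both alleles in most other cells, had 22.1 in WT against 27.4 in the other library, a change of 0.49 and a ratio of 1.24 (95% interval 1.13 to 1.37). The ratio of Ube3a to Snrpn was 0.167 in WT against 0.843 in the library labelled Eed-/-. C230091D08Rik, which lies beside Ube3a and which RefSeq gives as a synonym of Snhg14, had 2.55 and 4.08, a change of 0.61. Which transcripts were counted under each of these symbols is not given in the sources used here. Atp10a, a lipid flippase gene beyond Ube3a that has been reported as imprinted in some tissues, had 5.58 and 0.821, a change of -1.77.

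H19, the maternally expressed non-coding RNA whose locus shares enhancers and an imprinting control region with Igf2, had the second most negative change among the listed genes. It spans chromosome 7 of mm9 from 149761434 to 149764048 on the minus strand and holds Mir675 within its body. Its FPKM was 68.7 in WT against 18.2 in the library labelled Eed-/-, a change of -1.66 and a ratio of 0.265 (95% interval 0.219 to 0.319, from about 601 and 141 fragments). Igf2, the paternally expressed growth factor gene next to it, had 0.631 in WT against 1.28 in the other library. Its change was 0.51 and its ratio 2.03 (95% interval 1.02 to 4.46), from about 13.3 and 23.9 fragments. The partners thus moved in opposite directions from very unequal levels, and the ratio of H19 to Igf2 was 109 in WT against 14.2 in the library labelled Eed-/-.

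Phlda2, which encodes a pleckstrin-homology protein that restrains placental growth, was the third gene past the threshold. It spans chromosome 7 of mm9 from 150687450 to 150688446 on the minus strand, in the Kcnq1 cluster, and is maternally expressed. Its FPKM was 112 in WT against 36.6 in the library labelled Eed-/-, a change of -1.37 and a ratio of 0.328 (95% interval 0.269 to 0.399, from about 464 and 135 fragments). Slc22a18, a transporter gene next to it, had 1.25 in WT against 0.351 in the other library, a change of -0.72 with an interval of the ratio from 0.0551 to 1.17. Ascl2, a transcription factor gene needed for the placental spongiotrophoblast, had 2.41 and 1.30, a change of -0.52 with an interval from 0.248 to 1.12. The intervals of Slc22a18 and Ascl2 included a ratio of 1, so counting error alone could span their differences.

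The other genes of the Kcnq1 cluster lay nearer to their WT level. Cdkn1c, the cell cycle inhibitor p57, had an FPKM of 5.69 in WT against 4.42 in the library labelled Eed-/-, a change of -0.18. Cd81, a tetraspanin gene at the edge of the cluster, had 110 and 86.9, a change of -0.08. Tssc4, next to Cd81, had 17.1 and 19.4, a change of 0.34. Kcnq1ot1, the paternally expressed non-coding RNA that silences the cluster in cis, had 2.52 in WT against 3.60 in the other library, a change of 0.46, with no interval because the annotation used held no transcript of that symbol. The ratio of Cdkn1c to Kcnq1ot1 was 2.26 in WT against 1.23 in the library labelled Eed-/-. Over the Kcnq1 cluster, 7 of 8 genes passed the filter, 0 were higher, 1 was lower, and the median change was -0.18. Over all genes 3.80% were higher and 3.98% lower.

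The maternally expressed genes of distal chromosome 7, that is H19 and those of the Kcnq1 cluster, numbered 8, of which 7 passed the filter. Of these 2 were lower, 0 were higher, 6 had a change below 0, and the median was -0.52, beside 3.98% lower, 3.80% higher and a median of 0.01 over all genes. This grouping was made in addition to the planned ones by cluster and by allele. It joins H19 and Phlda2, the maternally expressed genes past the threshold, and leaves out the paternally expressed Kcnq1ot1, which had a change of 0.46. Its counts and median depend on that choice of genes and are not a separate result. The intervals of the deposited ratio of Cdkn1c, Slc22a18, Ascl2 and Tssc4 included 1. The other genes within 500 kb of the Kcnq1 cluster that passed the filter numbered 11, of which 0 passed the threshold in either direction, with a median of -0.21. Markers of trophoblast, the lineage in which Phlda2 and Ascl2 are known for their roles, summed to 42.4 FPKM in WT against 12.7 in the library labelled Eed-/-. This difference was that of Tfap2c (39.8 and 9.21). The sum of the other 7 markers went slightly the other way, from 2.69 in WT to 3.50. Single markers among these moved both ways. In the library labelled Eed-/-, 3 had a larger FPKM (Eomes, Gata3 and Hand1) and 3 a smaller one (Cdx2, Plac1 and Krt7). Of the 8 markers 7 passed the filter, and those past the threshold were Tfap2c, lower, and Eomes, higher (0.477 and 1.93). The defining marker Elf5 was listed at 0 in both libraries. In bulk RNA fewer cells of a type and less RNA per cell cannot be told apart, and the part of these markers in the values of Phlda2 and Ascl2 was not tested.

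**Figure D3:**
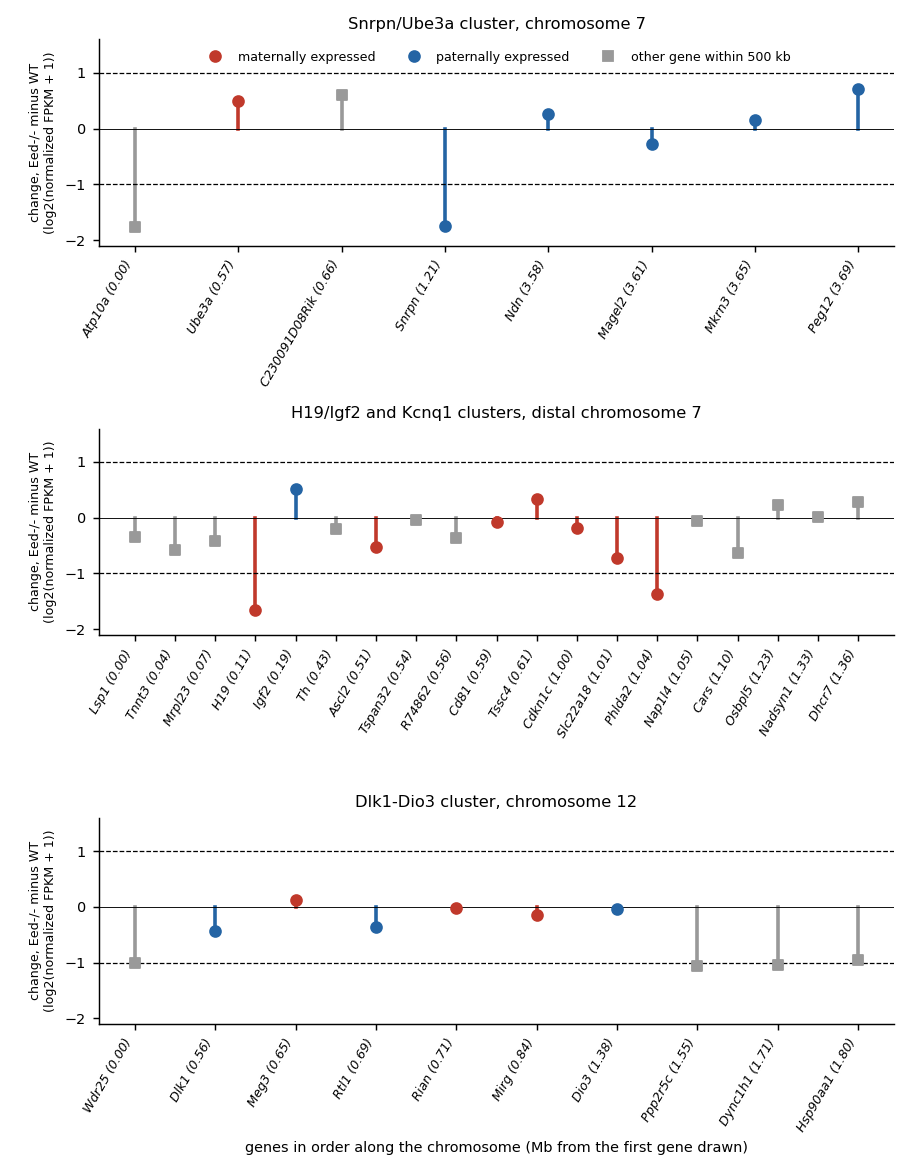
Change between the libraries (log2(normalized FPKM + 1), Eed-/- minus WT, 1 library each) of genes in order along the Snrpn/Ube3a, distal chromosome 7 and Dlk1-Dio3 clusters, with the distance in Mb from the first gene drawn in brackets; circles are imprinted genes of the list by expressed allele, squares are other genes within 500 kb that passed the filter, and the small nucleolar RNA AF357355 and genes without a position in the annotation (Kcnq1ot1, Snurf and Snhg14) are not drawn. Of the circles, Snrpn, H19 and Phlda2 lie below the lower 2-fold line, beside imprinted genes of the same clusters that lie near 0. Of the squares, Atp10a, Wdr25, Ppp2r5c and Dync1h1 also lie below that line.

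Plagl1, also called Zac1, encodes a zinc-finger transcription factor known for its links to other imprinted genes and was the 1 imprinted gene past the threshold upwards. It spans chromosome 10 of mm9 from 12810497 to 12851500 on the plus strand and is paternally expressed. Its FPKM was 0.627 in WT against 5.00 in the library labelled Eed-/-, a change of 1.96 and a ratio of 7.98 (95% interval 2.79 to 23.7). The WT value rests on about 4.55 fragments and the other on about 32.1, and with 27 annotated transcripts the fragment numbers are approximate. Of 9 other genes within 500 kb that passed the filter, 1 was higher (Pex3, with a change of 1.03) and 0 were lower. Over all genes 3.80% were higher and 3.98% lower. Inpp5f, a phosphatase gene with a paternally expressed shorter transcript, had the second largest positive change, at 4.56 in WT against 8.02 in the other library. Its change was 0.82, short of the threshold, with a ratio of 1.76 (95% interval 1.34 to 2.30), and the FPKM does not tell its imprinted transcript from the others.

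The Dlk1-Dio3 cluster of chromosome 12, whose maternally expressed non-coding RNAs are a known measure of mESC quality, had no gene past the threshold among its 6. Meg3, also called Gtl2, had an FPKM of 6.29 in WT against 6.21 in the library labelled Eed-/-, a change of 0.13. Rian, a host of small nucleolar RNAs, had 22.6 and 19.3, a change of -0.03, and Mirg, a host of microRNAs, had 3.45 and 2.77, a change of -0.15. All of these maternally expressed RNAs were thus detected in both libraries at close levels. The sign of the Meg3 change was negative, at -0.02, when the deposited FPKM were used without normalization between libraries. Rtl1, a retrotransposon-derived gene expressed from the paternal allele, had 2.73 and 1.78, a change of -0.36 and a ratio of 0.651 (95% interval 0.476 to 0.876). The maternal strand opposite Rtl1 holds 6 microRNAs, and whether counting used strand was not stated. Dlk1, a Notch-related growth regulator, had 0.456 and 0.0800, a change of -0.43 on about 3.68 and 0.572 fragments, which leaves the ratio undetermined between 0.00573 and 2.85. Dio3, the thyroid hormone deiodinase gene, had 0.818 and 0.734, a change of -0.04. The paternally expressed protein-coding genes of this cluster thus all stood below an FPKM of 3.

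The genes that flank the Dlk1-Dio3 cluster moved more than its members. Of 5 other genes within 500 kb that passed the filter, 3 were lower and 1 was higher, beside 3.98% and 3.80% of all genes. The lower ones were Wdr25 (an FPKM of 2.90 in WT against 0.876 in the other library), Ppp2r5c (38.9 and 16.0) and Dync1h1 (50.2 and 20.6). Hsp90aa1 (237 and 103) had a change of -0.95, short of the threshold. The higher one, AF357355, is a small nucleolar RNA within Rian and not a flanking gene. It was listed at 0 in WT and at an FPKM of 60870 in the other library. A few fragments of so short an RNA can give a large FPKM, and the number of fragments behind this value was not computed. Rian itself, which holds that RNA, had a change near 0.

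In the Peg3 cluster of proximal chromosome 7, Peg3, a paternally expressed zinc-finger gene, stood at 30.7 in WT against 15.1 in the library labelled Eed-/-, with a change of -0.82 and a ratio of 0.491 (95% interval 0.432 to 0.555, from about 834 and 362 fragments), so the difference exceeded counting error yet stayed inside the 2-fold line on the normalized scale. Usp29, a paternally expressed gene that starts on the opposite strand within a window overlapping that of Peg3 by 263 bases, had 0.399 and 0.518, a change of 0.13. Zim1, the maternally expressed zinc-finger gene of the cluster, had 0.500 and 0.513, a change of 0.03. Peg3 was thus the member of this cluster whose interval did not include a ratio of 1. The ratio of Zim1 to Peg3 was 0.0163 in WT against 0.0340 in the library labelled Eed-/-.

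In the Peg10/Sgce cluster of chromosome 6, Peg10, a retrotransposon-derived gene needed for the placenta, had 27.5 in WT against 29.3 in the library labelled Eed-/-, a change of 0.28. Sgce, which encodes a sarcoglycan and starts back to back with Peg10, had 1.64 and 1.23, a change of -0.21. The intervals of the deposited ratio were 0.986 to 1.16 for Peg10 and 0.309 to 1.65 for Sgce, and that of Peg10 after normalization was 1.13 to 1.32, so whether it included 1 depended on the scale. Ppp1r9a, a maternally expressed gene for the phosphatase-binding protein neurabin, had 3.68 and 2.07, a change of -0.54 and a ratio of 0.562 (95% interval 0.423 to 0.739). Asb4, a maternally expressed ubiquitin ligase adaptor gene, had 0.223 in WT, about 3.26 fragments, and was listed at 0 in the library labelled Eed-/-, where 3 fragments would be an FPKM of 0.231. The difference of Asb4 was therefore not detectable at this depth.

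In the Mest cluster of chromosome 6, Mest, a paternally expressed hydrolase gene of mesoderm, had 39.8 in WT against 29.8 in the library labelled Eed-/-, a change of -0.21. Copg2, a coatomer gene that overlaps the end of Mest on the opposite strand and is maternally expressed in some tissues, had 17.8 and 8.19. The change of Copg2 was -0.89 and its ratio 0.459 (95% interval 0.314 to 0.672). With the deposited FPKM, not normalized between libraries, its change was -1.03 and it passed the threshold. Because the genes overlap and the strand setting of the counting was not stated, reads could be shared between the pair. In the Trappc9/Kcnk9 locus of chromosome 15, Trappc9, a trafficking gene, had 5.44 and 2.37, a change of -0.84 and a ratio of 0.435 (95% interval 0.304 to 0.613). Kcnk9, a potassium channel gene beside it, was listed at 0 in both, where 3 fragments would be an FPKM of 0.405 in WT against 0.457 in the other library. Copg2, Trappc9 and Peg3 were the listed imprinted genes next below the threshold on the lower side.

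In the Igf2r locus of chromosome 17, Igf2r, the maternally expressed receptor that clears IGF2, had 17.9 in WT against 19.8 in the library labelled Eed-/-, a change of 0.31. Slc22a3, a placental transporter gene of the same locus, was listed at 0 in both, where 3 fragments would be an FPKM of 0.125 in WT against 0.142 in the other library. Airn, the non-coding RNA that silences this locus in cis, was also listed at 0 in both libraries.

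Most of the loci with 1 gene differed little. Slc38a4, an amino acid transporter gene known for an imprint that rests on H3K27me3 in the early embryo, had 55.8 in WT against 53.3 in the library labelled Eed-/-, a change of 0.17 and a ratio of 0.955 (95% interval 0.855 to 1.07). Gnas, a locus of several transcripts that encodes the stimulatory G protein subunit, had 52.1 and 58.1, a change of 0.39. Impact, a paternally expressed gene of the amino acid response, had 23.9 and 23.5, a change of 0.16. The changes of Slc38a4 and Impact were negative, at -0.07 and -0.02, with the deposited FPKM, so neither had a direction that held under each scaling. Grb10, a receptor adaptor gene whose expressed allele differs between brain and other tissues, had 4.44 and 4.99, a change of 0.26. Zrsr1, a splicing factor retrogene within an intron of Commd1, had 4.85 and 5.57, a change of 0.30, while Commd1 had a change of -0.25. Nnat, a membrane protein gene of the brain that lies within Blcap, had 9.62 and 5.65, a change of -0.54 and a ratio of 0.587 (95% interval 0.380 to 0.900). Nap1l5, a retrogene within Herc3, had 0.242 and 0.181, about 2.98 and 1.98 fragments, which is at the limit of detection. Rasgrf1, an exchange factor gene, was listed at 0 in both, where 3 fragments would be an FPKM of 0.171 in WT against 0.193 in the other library.

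**Figure D4:**
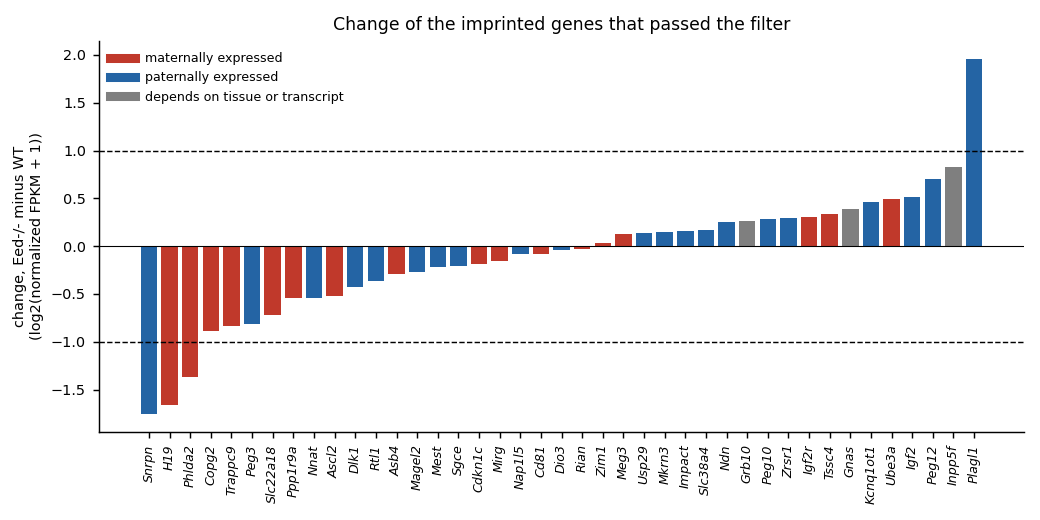
Change (Eed-/- minus WT, log2(normalized FPKM + 1), 1 library each) of the 41 imprinted genes that passed the filter, ordered by size and coloured by expressed allele, with dashed lines at a 2-fold difference. Snrpn, H19 and Phlda2 lie below the lower line and Plagl1 above the upper one, and maternally expressed genes hold 12 of the bars below 0.

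By expressed allele, 17 of the 20 maternally expressed genes passed the filter, of which 0 were higher and 2 were lower (H19 and Phlda2), with a median change of -0.18 and 12 of 17 below 0. Of the 22 paternally expressed genes 21 passed, with 1 higher (Plagl1), 1 lower (Snrpn), a median of 0.13 and 10 of 21 below 0. Over all genes 3.80% were higher and 3.98% lower. The difference between these classes was not tested, because the genes share 2 libraries and neighbours within a cluster share their control regions. The median of the paternally expressed genes was -0.07 with the deposited FPKM, beside -0.091 over all genes, so its sign depended on the scaling. The maternal class holds genes that are so expressed in some tissues only, Ube3a and Copg2 among them. The 3 genes set apart because their class depends on tissue or transcript all had changes above 0, with a median of 0.39. The 5 non-coding RNAs (H19, Meg3, Rian, Mirg and Kcnq1ot1) had a median of -0.03, with 1 of 5 lower, and the 36 protein-coding genes that passed the filter had a median of -0.06.

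Pairs of genes classed as oppositely expressed within a cluster did not move alike. The ratio of the maternally to the paternally expressed gene was lower in the library labelled Eed-/- for H19 and Igf2, for Cdkn1c and Kcnq1ot1, and for Copg2 and Mest, where it was 0.449 in WT against 0.275 in the other library. It was higher for Meg3 and Dlk1, at 13.8 in WT against 77.6 in the other library, for Ube3a and Snrpn, and for Zim1 and Peg3. The Meg3 ratio rests on under 4 fragments of Dlk1 in either library. For Asb4 and Peg10 it was 0.00811 in WT, and no ratio above 0 could be had in the other library.

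**Figure D5:**
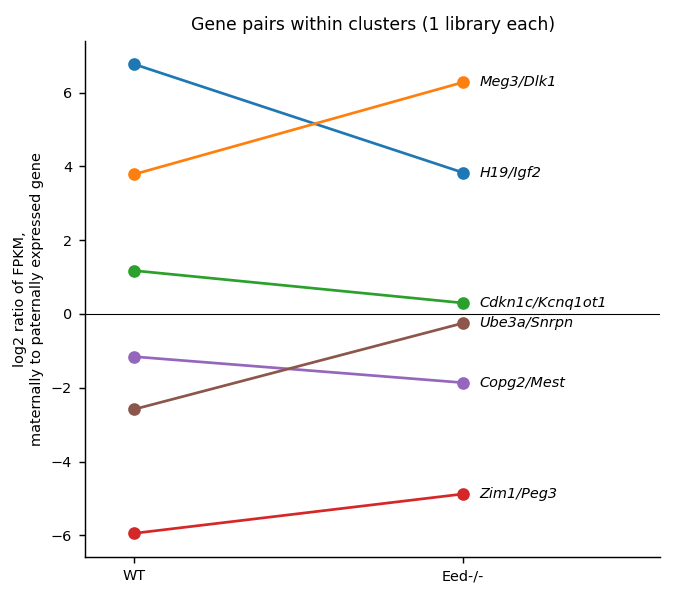
Log2 ratio of the deposited FPKM of the maternally to the paternally expressed gene for 6 pairs within a cluster, in the WT library and in the library labelled Eed-/- (1 library each, joined by a line). The line falls for H19/Igf2, Cdkn1c/Kcnq1ot1 and Copg2/Mest and climbs for Meg3/Dlk1, Ube3a/Snrpn and Zim1/Peg3.

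The promoter windows of the imprinted genes were richer in CpG than those of genes at large. Windows were held for 36 of the 45 genes, 53 in all, with a median of 13 CpG and 57.7% GC, beside 7 CpG and 52.7% GC over 32817 windows. The hexamer TGCCGC, in either orientation, was in 11 of the 53 windows (20.8%) beside 11.6% of all windows. The windows of the imprinted genes include several starts of the same gene, among them overlapping windows of Mest that both hold it. The hexamer itself contains a CpG, and the shares were not adjusted for the higher CpG number of these windows. The genes with it were Nnat, Mest, Copg2, Nap1l5, Zim1, Snrpn, Igf2, Plagl1, Grb10 and Meg3, so it was present at genes whose changes ran from that of Snrpn to that of Plagl1. The core motif of YY1, GCCATNTT on either strand, was in 3 windows (5.66%), those of Ube3a, Mkrn3 and Slc38a4, beside 6.04% of all. A match is a description of these letters and not a bound site.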

How the data were processed

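RNA was measured in 1 WT and 1 Eed-/- mESC library. The authors mapped reads to mm9 and deposited FPKM values by gene symbol. The submitters' processing notes name Bowtie2 2.2.2, TopHat2 2.0.11 and Cufflinks 2.2.1. The annotation, the strand setting and any masking were not given in the sources used here. Of 24525 values per library, those of 268 repeated symbols were summed, and the libraries were quantile-normalized. All 45 members were named, with the 5 other imprinted genes of largest change whose mean reached 1, and the maintenance factors and PRC2 subunits past the threshold. Flanking genes, shared transcripts and markers were named after their values were seen.

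The members and lists were chosen with earlier results of these data known. Positions and lengths were read from GENCODE vM1 (NCBIM37, that is mm9), which held 44 of the 45 genes, and promoter windows from RefSeq on GRCm38.p6. Depth was fitted to single-transcript genes of at least 1000 bases, with 180 bases taken off, and 667 of 835 low values in WT (79.9%) and 769 of 943 in the library labelled Eed-/- (81.5%) lay within 0.1 of a whole fragment. Transcripts of 44 genes were aligned with minimap2 2.31, and 0 had a further copy in the genome at 80% coverage and 95% identity. Computations ran in Python 3.11.15 with pandas 2.3.3 and scipy 1.17.1 and were tested on simulated data. The alternatives were deposited FPKM, median-ratio scaling (set on genes whose mean FPKM reached 2), pseudocounts of 0.1 or 0.01 in place of 1, a minimum of 1 or none, repeated symbols or small RNAs left out, and a 3-fold threshold. The other samples of the series were not used here.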

Additional observations from a re-analysis of the deposited data

How the results depend on the processing

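No paired analysis was possible because each genotype had 1 library. Snrpn, H19, Phlda2 and Plagl1 kept their direction under all alternatives run and passed 2-fold in each, with changes from -1.99 to -1.76, -1.86 to -1.66, -1.58 to -1.37 and 1.88 to 3.08. At a 3-fold threshold Phlda2 no longer passed. With the deposited FPKM, 455 genes were higher and 801 lower, in place of 564 and 590, and the median of all genes was -0.091, and the cause was not tested. This median was 0.022 with median-ratio scaling, 0.016 with pseudocounts of 0.1 and 0.01 alike, and 0 with no filter. The number of imprinted genes at least 2-fold lower was 7 with a pseudocount of 0.1 and 8 with 0.01, where the number higher was 2. Over all genes, 1694 were higher and 1778 lower with a pseudocount of 0.1, 1914 and 1989 with 0.01, and 152 and 137 at 3-fold. A smaller pseudocount shrinks the changes of low values less, by construction. With 0.01 the added genes were Igf2 upwards and Dlk1, Asb4, Magel2, Slc22a18 and Trappc9 downwards. Of 319 changes computed for the 41 genes under alternatives, 4 had the other sign, those of Meg3, Impact and Slc38a4 with the deposited FPKM and of Dio3 with median-ratio scaling.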

Other observations

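Beyond the 45 genes, 47 further symbols reported as imprinted in some mouse tissue were in the tables. Of these 33 passed the filter, 0 were higher and 1 was lower (Atp10a) in the library labelled Eed-/-, and their median change was -0.20. The 1 lower gene is 3.03% of the 33, beside 3.98% lower and 3.80% higher over all genes. Among those whose mean normalized FPKM reached 1, the next largest changes were those of Casd1 (3.52 in WT against 1.21 in the other library, -0.98), Mcts2 (22.7 and 33.9, 0.74), Cobl (10.8 and 16.7, 0.73) and Ago2 (8.38 and 12.5, 0.67). Casd1 lies beside Sgce, which had a change of -0.21.

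Of 13 factors known to keep imprints through early development, Zfp42, also called Rex1, was higher (131 and 272, a change of 1.30) and Dppa3, also called Stella, was lower (38.4 and 15.5, a change of -1.10). Zfp57, which binds the methylated hexamer, had 44.4 and 68.9, a change of 0.83, and its cofactor Trim28 had 513 in both libraries. The list had a median of 0.22, which was near 0 with the deposited FPKM. Of 11 PRC2 subunits, Phf19 was lower (13.7 and 2.61, a change of -1.92), and the median was 0.07. The genes past the threshold are 7.69% higher and 7.69% lower of the 13 factors and 9.09% lower of the 11 subunits. Over all genes 3.80% were higher and 3.98% lower, and in lists this short 1 gene makes the whole share.

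Chromosomes differed in their median change, at -0.29 for chromosome 1, -0.38 for chromosome 8 and 0.46 for X, none of which holds a gene of the list. On the chromosomes that hold genes of the list, the median ran from -0.03 (chromosome 12) to 0.11 (chromosome 18). It was -0.01 for chromosome 7 and 0.02 for chromosome 6. No median was taken for the remaining chromosomes. Summed markers of fibroblasts were 2.15 FPKM in WT against 7.92 in the library labelled Eed-/-, and without Thy1 (0.976 and 6.97) the other 7 summed to 1.17 and 0.947. Those of neural cells were 109 and 95.8, and without Tubb3 (95.4 and 74.0) the other 7 summed to 13.3 and 21.9. Both sums thus turned direction without their most abundant gene. Those of primitive endoderm were 1.50 and 3.98, and 1.07 and 2.63 without Gata4. Of 8 in each list, 4, 7 and 5 passed the filter, and those past the threshold were Thy1 and Ncam1, both higher. Over all genes 3.80% were higher and 3.98% lower. Fap, Afp, Ttr and Dcx were listed at 0 in both libraries.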
